A study of Mus musculus with 4 samples.

Results

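The 10 genes described here license and restrain DNA replication, and were chosen by symbol from the deposited transcript list: Mcm2, Mcm3, Mcm4, Mcm5, Mcm6 and Mcm7, the loading factors Cdt1 and Cdc6, geminin (Gmnn) and its relative Gmnc, which the deposited list writes as Gm606. All 10 had at least 1 probeset, 149 in all, and they stood for 10 of the 18010 genes and 11 of the 22485 transcripts measured. Gene expression was measured on exon arrays in the dentate gyrus, microdissected from the hippocampus of wild-type C57/Black6 male mice aged 8 weeks. The 2 ECS arrays were taken 4 h after an electroconvulsive stimulus that induces a seizure (100 Hz for 1.0 s, 18 mA, pulses of 0.3 ms) and the 2 sham arrays 4 h after sham treatment; arrays are numbered as in the labels. The labels name biological replicates but give no number of animals per array, so SDs measure only the spread between these arrays. The SE and interval of a difference are moderated by limma's eBayes. It adds 3.23 prior degrees of freedom, estimated over all genes, to the 2 residual ones of these arrays. They are thus not the spread of a gene's own arrays alone, and the spread between animals was not measured.

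Before S phase the origin recognition complex, Cdc6 and Cdt1 load rings made of Mcm2 to Mcm7 onto DNA, a step called licensing; the rings later become the core of the replicative helicase. Geminin binds Cdt1 and blocks further loading once S phase has begun. Gmnc shares the coiled coil of geminin, but is known for switching on the programme that makes multiciliated cells such as those of the ependyma. In the adult dentate gyrus, cells that replicate DNA are the progenitors of the subgranular zone, while granule neurons have left the cell cycle.

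Gmnc and Mcm6 were lower 4 h after ECS, with log2 differences of -1.81 and -0.96, which is 3.51-fold and 1.95-fold. The other 8 members differed by between -0.23 and 0.16. In limma's fit over all genes 2 of the 10 members passed an adjusted p of 0.05 as lower, against 0.194% of all genes, and 0 passed as higher, against 0.5% of all genes. At an unadjusted p under 0.05 the same counts were 2 and 0, against 16.9% of all genes in either direction. The differences of Gmnc and Mcm6 were known when the family was chosen, so these counts and the values of all 10 members are a description, and nothing is read from the shares. The median difference of the 10 members was -0.13, against -0.04 over all genes.

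Gmnc read 5.41 on ECS 1 and 5.51 on ECS 2, against 7.04 on sham 1 and 7.51 on sham 2 (log2 expression). The lower sham array lay 1.53 above the higher ECS array, while the sham arrays differed from each other by 0.47 and the ECS arrays by 0.10. The means were 5.46 ± 0.07 after ECS and 7.27 ± 0.33 after sham (SD, n = 2 each). The difference was -1.81 ± 0.17 (moderated SE), with a moderated 95% interval from -2.24 to -1.38. Of all 18010 genes, 2 had a lower difference. In whole tissue, fewer cells of a type and less RNA per cell cannot be told apart.

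Mcm6, a subunit of the helicase ring, read 6.68 on ECS 1 and 6.53 on ECS 2, against 7.54 on sham 1 and 7.60 on sham 2. The groups did not overlap, and the gap of 0.86 between them was wider than the 0.15 between the ECS arrays and the 0.05 between the sham arrays. The difference was -0.96 ± 0.10 (SE), with a 95% interval from -1.21 to -0.71, and 23 genes had a lower one. The call was lost for Mcm6 without any 1 of the 4 arrays, and for Gmnc without ECS 1, ECS 2 or sham 2, with differences of -1.04 to -0.89 for Mcm6 and -2.04 to -1.58 for Gmnc over the 4 fits that each left out 1 array.

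The promoters of 3 Mcm genes and of Gmnc are shown because the genes of 1 ring, which E2F transcription factors are known to switch on together before S phase, did not share the size of their difference. The sequences are the 250 bases before the gene's start in RefSeq (GRCm38.p6), on the gene's strand, and capitals mark matches to the E2F letters TTTNNCGC on either strand or, for Gmnc, to the CCAAT box. Mcm6 lies on the minus strand (chr1:128359706-128359955), Mcm5 on the plus strand (chr8:75109259-75109508), Mcm2 on the minus strand (chr6:88898781-88899030), and the farther upstream of 2 listed Gmnc starts on the minus strand (chr16:26991653-26991902); the window of the other Gmnc start held no match to either motif and is not shown.
Mcm6: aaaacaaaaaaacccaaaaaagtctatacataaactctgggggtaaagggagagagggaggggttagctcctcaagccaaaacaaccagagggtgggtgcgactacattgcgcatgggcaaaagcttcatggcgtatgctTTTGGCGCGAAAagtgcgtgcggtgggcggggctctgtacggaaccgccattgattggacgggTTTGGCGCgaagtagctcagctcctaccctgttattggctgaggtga
Mcm5: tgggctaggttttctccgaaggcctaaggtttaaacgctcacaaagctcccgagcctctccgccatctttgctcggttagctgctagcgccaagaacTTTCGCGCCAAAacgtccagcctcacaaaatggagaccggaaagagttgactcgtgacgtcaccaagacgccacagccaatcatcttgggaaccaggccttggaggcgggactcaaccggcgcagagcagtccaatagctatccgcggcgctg
Mcm2: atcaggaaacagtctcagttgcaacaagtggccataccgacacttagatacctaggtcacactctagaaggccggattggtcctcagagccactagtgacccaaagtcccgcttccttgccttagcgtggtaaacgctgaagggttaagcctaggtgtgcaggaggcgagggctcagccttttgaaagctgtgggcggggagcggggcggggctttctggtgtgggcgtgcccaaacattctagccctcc
Gmnc: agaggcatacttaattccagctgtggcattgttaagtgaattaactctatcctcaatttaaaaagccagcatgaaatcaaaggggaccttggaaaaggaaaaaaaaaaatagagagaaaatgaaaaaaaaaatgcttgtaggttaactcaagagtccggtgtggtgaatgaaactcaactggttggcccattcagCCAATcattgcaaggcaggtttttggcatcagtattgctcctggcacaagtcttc

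RefSeq windows of 300 bases (250 before and 50 after a start) were found for 8 of the 10 members, with 2 starts each for Gmnc and Mcm7; Mcm4 and Gmnn had no entry. An E2F match stood in a window of 6 of these 8 genes (Mcm3, Mcm5, Mcm6, Mcm7, Cdt1 and Cdc6), while 5.17% of all 32851 windows held one. Mcm6 had 3 matches before its start, 2 of them overlapping on opposite strands in the first run of capitals. Mcm5 had 2, which overlap likewise, and Mcm2 had none in its window. The difference was -0.96 for Mcm6 and -0.23 for Mcm5, and a link between matches and differences was not tested. The CCAAT box, searched as CCAAT on both strands, stood in a window of 6 of the 8 genes and in 37.4% of all windows. Of 3 motifs of activity-regulated factors, the CRE (TGACGTCA, 1.79% of all windows) matched once, in Mcm5, and neither the AP-1 site (TGANTCA, 7.81%) nor the EGR site (GCGNGGGCG, 5.55%) matched in any window of a member. These are descriptions of letters in a window and say nothing of whether a factor binds.

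**Figure D1:**
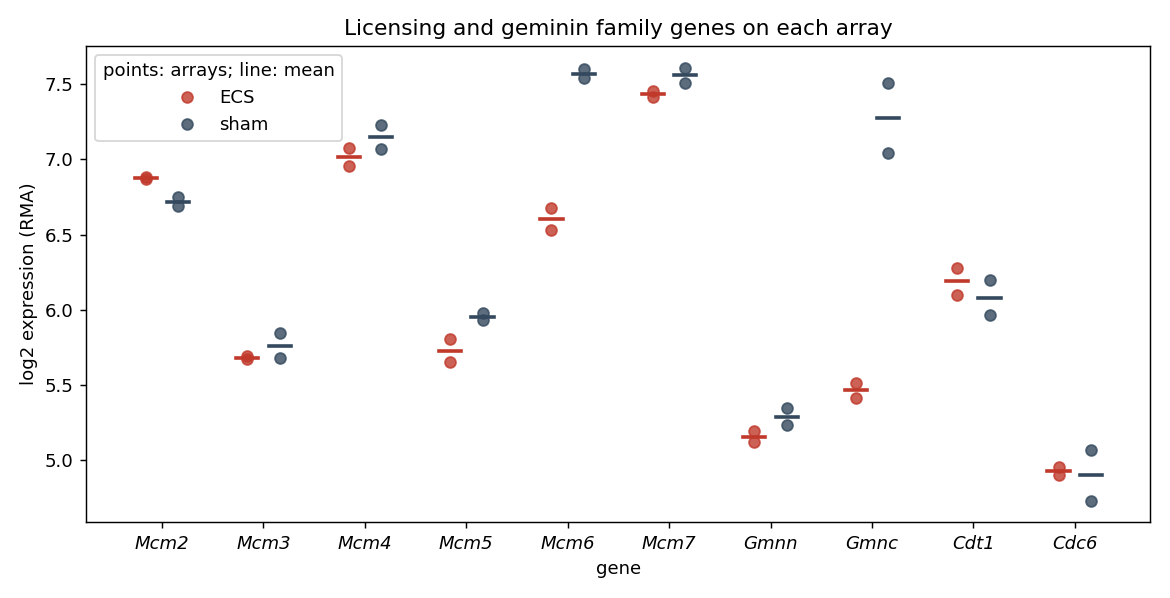
Log2 expression (vertical axis) of the 10 members (horizontal axis) on each array, with ECS left of sham for each gene, points for arrays and lines for means of 2. Gmnc and Mcm6 have the widest space between the groups, and the ECS and sham means of each of the other 8 genes lie at most 0.23 apart.

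None of the 5 other ring subunits passed the threshold. Mcm2 read 6.87 and 6.88 on the ECS arrays, against 6.75 and 6.69 on the sham arrays, and both ECS values were the higher ones (difference 0.16 ± 0.09, SE). Mcm5 read 5.80 and 5.65 after ECS and 5.98 and 5.93 after sham, with both ECS values lower (-0.23 ± 0.10). Mcm7 read 7.41 and 7.46 after ECS and 7.51 and 7.61 after sham, also without overlap (-0.13 ± 0.09).

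Mcm3 and Mcm4 had overlapping groups. Mcm3 read 5.69 and 5.67 on the ECS arrays, against 5.68 and 5.84 on the sham arrays (-0.08 ± 0.10), and Mcm4 read 7.08 and 6.95, against 7.07 and 7.23 (-0.13 ± 0.11). The 95% intervals of these 5 subunits ran from -0.48 at the lowest, for Mcm5, to 0.38 at the highest, for Mcm2, and with the median over probesets Mcm2 had 0.44 and Mcm7 -0.31. Within each array Mcm6 was set against the mean of the 5 other subunits: relative to the sham average it stood at -0.83 on ECS 1 and -0.93 on ECS 2, and at 0.00 on both sham arrays. Mcm6 and the mean of the other 5 thus changed unequally, with -0.88 between them.

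The loading factors Cdt1 and Cdc6 overlapped between the groups. Cdt1 read 6.28 and 6.10 on the ECS arrays and 6.19 and 5.96 on the sham arrays, a difference of 0.11 ± 0.12. Cdc6 read 4.90 and 4.95 on the ECS arrays and 5.07 and 4.73 on the sham arrays, a difference of 0.03 ± 0.14; its 2 transcripts have the same 15 probesets and so the same values. Gmnn, the Cdt1 inhibitor, read 5.19 and 5.12 after ECS and 5.23 and 5.34 after sham, with both ECS values lower by a narrow margin (-0.13 ± 0.10, or -0.30 with the median over probesets). Relative to Gmnn on the same array and to the sham average, Gmnc stood at -1.76 and -1.59 on the ECS arrays and at -0.18 and 0.18 on the sham arrays. The 2 genes of the geminin family thus changed unequally, with -1.68 between them.

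Counted by array alone, 5 members (Gmnc, Mcm6, Mcm5, Mcm7 and Gmnn) had both ECS arrays below both sham arrays, against 30.7% of all genes, and Mcm2 had both above, against 18.7%. After each array was centred on its median the counts were 5 and 1 again, against 20.3% of all genes for the lower ones. The share of all genes with both ECS arrays above was not counted after centring. The ECS medians were 7.26 and 7.20 over all genes and the sham medians 7.25 and 7.35, so sham 2 stood highest.

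Single probesets, each of which reads a short stretch of a transcript, showed how far a difference varied within a gene. None of the members' 149 probesets is listed for another gene. In Mcm6, 16 of 19 probesets had both ECS arrays below both sham arrays, against 25.6% of all 229712 probesets listed for a transcript. The differences of these 16 ran from -1.53 to -0.86. The lowest was that of a probeset at 8.75 and 8.72 on the ECS arrays, against 10.4 and 10.1 on the sham arrays. Of the other 3, 2 read between 1.82 and 2.96 on every array, at the dim end of the scale. The last was bright and yet overlapped, at 8.99 and 9.08 on the ECS arrays and 9.48 and 8.89 on the sham arrays (-0.15).

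The 3 Mcm6 probesets among the dimmest 25% of all probesets had differences between -0.86 and 0.48. The 16 brighter ones averaged 7.39 and 7.30 on the ECS arrays, against 8.47 and 8.50 on the sham arrays, a difference of -1.14 against -0.96 over all 19. Probesets of a gene share their RNA and arrays and are not replicates.

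In Gmnc all 5 probesets had both ECS arrays below both sham arrays. A group of 4 lay close together, with differences of -2.34, -2.24, -2.15 and -1.95. The fifth stood apart at -0.38, with 6.31 and 6.53 on the ECS arrays and 6.92 and 6.68 on the sham arrays. Probesets were not placed on exons here. The median of the 5 differences was -2.15 and their mean -1.81, while the median of the probesets taken on each array first gave -1.55, so the value depends on how the probesets are summarised.

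The 8 other members together had 28 of 125 probesets lower on both ECS arrays (22.4%, against 25.6% of all) and 13 higher on both (10.4%, against 17.6%). Mcm5 had the most of these, 8 of 20 lower and 1 higher, and Mcm7 had 6 of 21 lower and 0 higher. Mcm2 had 5 of 17 higher and 1 lower, up to 0.93. In Cdc6, 12 of 15 probesets were among the dimmest 25%, and single differences ran from -0.78 to 1.18. Gmnn had 7 probesets between -0.29 and 0.23.

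**Figure D2:**
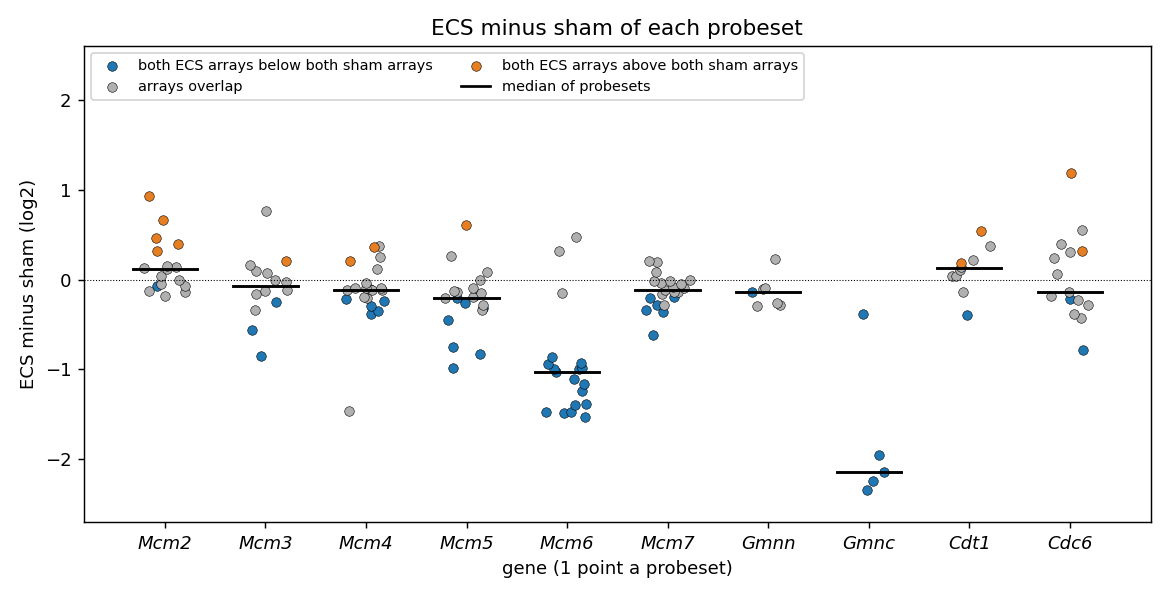
ECS minus sham (vertical axis, log2) of each of the 149 probesets of the members (horizontal axis, by gene), coloured by whether the 2 ECS arrays lie below, above or among the 2 sham arrays, with the median of a gene's probesets as a line. The Mcm6 points gather near -1.03 with 3 near or above 0, and 4 of the 5 Gmnc points lie near -2.

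Genes of the surrounding pathway were taken from lists of 6 kinds, 90 measured genes in all, of which 0 passed the adjusted threshold in limma's fit over all genes, against 0.694% of all genes. At an unadjusted p under 0.05 there were 27, or 30%, against 16.9% of all genes. With eBayes fitted with trend and robust 7 of the 90 were called, against 3.98% of all genes in that fit: Tyms, Rnaseh2a and Orc3 lower and Lin54, Mcmbp, Rpa1 and E2f3 higher. Without the dimmest 25% of genes 3 of the 65 left were called (Tyms, Rnaseh2a and E2f3), against 3.39% of all genes left.

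Factors that load, fire or open origins were split evenly: of 20, 10 had negative and 10 positive differences, with a median of 0.00. Orc3, a subunit of the origin recognition complex, had -0.41 ± 0.09 (adjusted p = 0.126), and Cdc7, the kinase that fires licensed origins, had -0.40 ± 0.10 (adjusted p = 0.153). Mcmbp, a protein that binds and stabilises Mcm subunits, read 9.47 on both ECS arrays, against 8.97 and 9.12 on the sham arrays (0.42 ± 0.10, adjusted p = 0.144). Dbf4, the activator of Cdc7, had 0.30 ± 0.17. The MCM paralogs outside the ring, Mcm8, Mcm9 and Mcmdc2, had -0.16, -0.19 and -0.37; 8 of the 24 Mcm9 probesets are listed for another gene too. Of 10 genes that control licensing through protein turnover or chromatin, 7 had negative differences (median -0.07), against 57.9% of all genes. The 10 ran from the -0.28 of the ligase scaffold Cul4b and the -0.27 of Cdc20 to the 0.05 of Fbxo5 and the 0.07 of Cul1.

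Replication fork genes leaned lower than all genes: 24 of 30 (80%, against 57.9% of all genes) were negative, with a median of -0.19 against -0.04 over all genes. In 19 of the 30 both ECS arrays lay below both sham arrays, against 30.7% of all genes. That share of all genes was 20.3% after median centring, and the 30 were not counted again after it. Sham 2, with the highest median over all genes, was the highest array for 19 of the 30. Without sham 2 the median of the 30 was -0.14. None of the 30 passed. Rfc3, a subunit of the clamp loader, read 5.81 and 5.61 on the ECS arrays, against 6.17 and 6.38 on the sham arrays (-0.57 ± 0.12, adjusted p = 0.134). Prim1, the primase subunit, had -0.54 ± 0.11 (adjusted p = 0.121). Rpa1, which coats single-stranded DNA, had 0.47 ± 0.10 (adjusted p = 0.138) and the polymerase delta subunit Pold3 had 0.22 ± 0.20.

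Among 18 E2F and Rb genes the median was -0.03. E2f3, an activating E2F, read 8.33 and 8.27 on the ECS arrays, against 7.77 and 7.78 on the sham arrays (0.53 ± 0.09, adjusted p = 0.0900), and Lin54, a DNA-binding subunit of the DREAM complex, had 0.41 ± 0.09 (adjusted p = 0.144). Rbl2, a repressor of the Rb family, had -0.24 ± 0.11 and E2f1 -0.22 ± 0.11. Of 9 nucleotide supply genes the median was -0.06. Tyms, which makes thymidylate, read 5.99 and 5.79 on the ECS arrays, against 6.54 and 6.72 on the sham arrays (-0.74 ± 0.12, adjusted p = 0.0877), beside -0.41 ± 0.11 for Rrm2b, 0.17 ± 0.20 for Tk1 and 0.23 ± 0.20 for Rrm2. These lists were chosen with earlier results of these arrays known.

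Markers of cycling cells were set beside Mcm6. Of 7 measured, including the mitotic genes Mki67 (0.27 ± 0.10), Ccnb1 (0.20 ± 0.13), Top2a (-0.14 ± 0.09) and Bub1 (-0.13 ± 0.09), 0 passed in limma's fit, 1 had an unadjusted p under 0.05, and their mean level was 4.82 and 4.94 on the ECS arrays, against 4.85 and 4.87 on the sham arrays. Of 6 progenitor and immature neuron genes 0 passed limma's threshold and 1 had an unadjusted p under 0.05, against the same 16.9%. Dcx, a microtubule protein of young neurons, had -0.27 ± 0.10, Eomes, of intermediate progenitors, -0.20 ± 0.10, and Igfbpl1 0.03 ± 0.15. The part of cycling cells in the Mcm6 difference was not tested.

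Genes that act with Gmnc in multiciliated cells were measured as well. Of 13 multiciliation genes and 12 motile cilia genes, 0 passed in limma's fit and 3 had an unadjusted p under 0.05, against 16.9% of all genes. The lists had medians of -0.12 each. Mcidas, the other geminin relative of this programme, read 6.34 and 6.30 on the ECS arrays and 6.64 and 6.25 on the sham arrays (-0.13 ± 0.15), with overlapping groups. Foxj1, the transcription factor of motile cilia, read 7.28 and 7.18 on the ECS arrays and 7.22 and 7.28 on the sham arrays (-0.02 ± 0.09). Ccno, a cyclin-like gene of multiciliated cells, had -0.33 ± 0.18 and Cep152 -0.20 ± 0.11, while the p53 relative Trp73 had 0.24 ± 0.10 and Ccdc78 0.42 ± 0.16. Of the cilia genes the axonemal dynein Dnah5 had -0.37 ± 0.12, Rsph4a of the radial spoke -0.36 ± 0.09 and Tekt1 0.12 ± 0.10. Negative differences were found in 11 of the 12, against 57.9% of all genes. Of the 12, 7 were highest on sham 2, and their median without that array was -0.11.

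Choroid plexus and ependyma lie beside the dissected tissue, and the choroid plexus markers moved between arrays. All 11 were highest on sham 2, the array on which Gmnc was also highest. Sham 2 also had the highest median over all genes, 7.35, and the share of all genes highest on it was not counted. The mean of the 11 was 5.91 and 5.69 on the ECS arrays, against 5.80 on sham 1 and 7.08 on sham 2, and none was at 0 on any array. Ttr, the transthyretin gene, read 6.55 and 5.90 on the ECS arrays, against 6.12 on sham 1 and 10.2 on sham 2, and Clic6 had a difference of -1.38 ± 0.77. Of the 11, 0 passed in limma's fit and 3 had both ECS arrays below both sham arrays, against 30.7% of all genes. At an unadjusted p under 0.05 there was 1, Kl, against 16.9% of all genes. Kl read 7.59 and 7.32 on the ECS arrays, against 8.05 on sham 1 and 8.60 on sham 2 (-0.87 ± 0.21, adjusted p = 0.152), and had -0.60 without sham 2. Motile cilia genes averaged 5.42 and 5.36 on the ECS arrays, against 5.50 and 5.56 on the sham arrays. Without sham 2 the difference of Gmnc was -1.58, against -1.81 with it, and that of Mcm6 -0.94, against -0.96. The median choroid plexus difference was 0.02 without sham 2 and -0.45 with it. Whether tissue beside the dentate gyrus had a part in the Gmnc and Mcm6 differences was not tested.

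**Figure D3:**
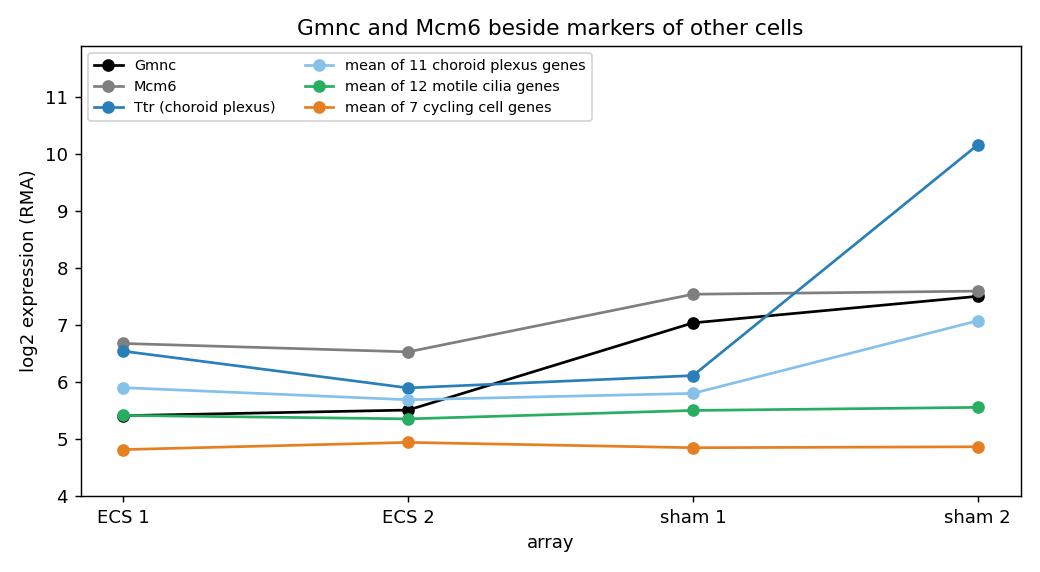
Log2 expression (vertical axis) on the 4 arrays (horizontal axis) of Gmnc, Mcm6 and Ttr and the mean of the choroid plexus, motile cilia and cycling cell lists. Ttr and the choroid plexus mean stand high on sham 2 alone, and Gmnc and Mcm6 are lower on both ECS arrays than on both sham arrays. The cycling cell mean stays between 4.82 and 4.94, at the dim end of the scale.

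**Figure D4:**
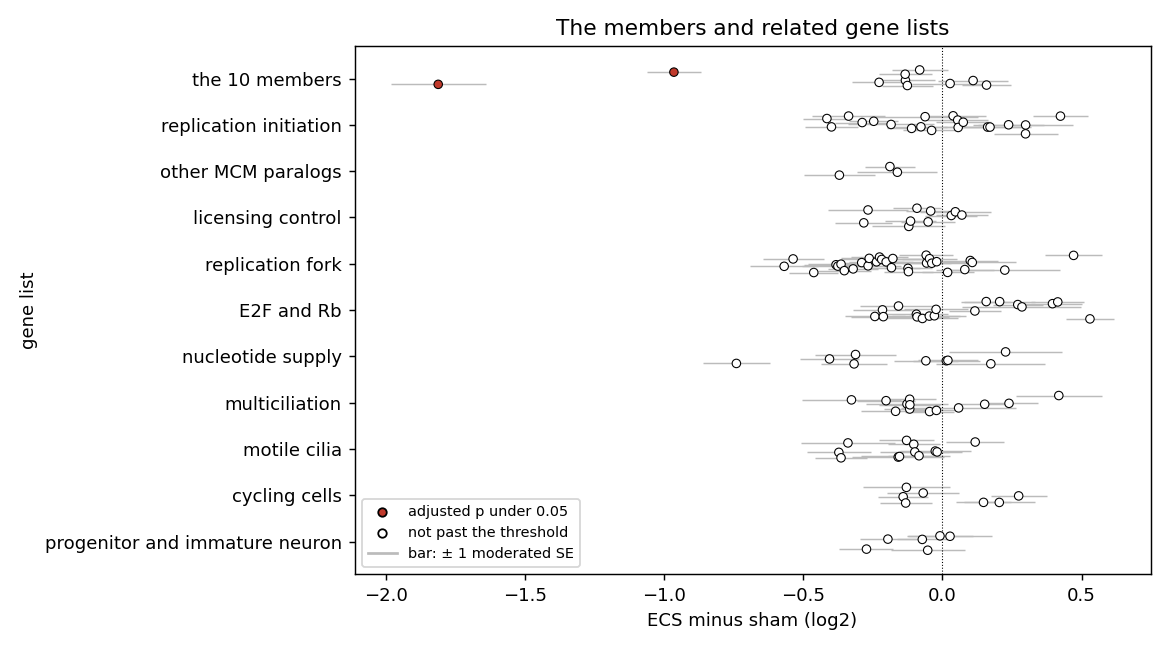
ECS minus sham (horizontal axis, log2, bars for 1 moderated SE) of the 10 members and of the genes of 10 related lists (vertical axis). Of the points shown, Gmnc at -1.81 and Mcm6 at -0.96 pass the adjusted threshold.

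Granule neuron markers were mostly lower after ECS, like Gmnc and Mcm6. Of 8 such markers 7 had negative differences, against 57.9% of all genes, and their median was -0.57, against -0.04 over all genes. In 6 both ECS arrays lay below both sham arrays, against 30.7% of all genes. In limma's fit 2 of the 8 passed the adjusted threshold as lower, against 0.194% of all genes. They were Tdo2 (-2.86 ± 0.14, adjusted p = 0.0125) and the desmosomal gene Dsp (-1.37 ± 0.11, adjusted p = 0.0195). At an unadjusted p under 0.05 there were 6, against 16.9% of all genes. This list too was chosen with earlier results of these arrays known, so the counts are a description. Plk5 had -0.71 ± 0.12, Lct -0.62 ± 0.10, the calcium-binding protein gene Calb1 -0.52 ± 0.12, Stxbp6 -0.28 ± 0.11 and C1ql2 -0.08 ± 0.10. Prox1, the granule cell transcription factor, read 9.60 and 9.53 on the ECS arrays and 9.29 and 9.40 on the sham arrays (0.22 ± 0.09). The part of the granule neurons in the Gmnc and Mcm6 differences was not tested. Pyramidal, astrocyte, oligodendrocyte, microglia and endothelial markers had medians between -0.13 and 0.16 and 0 calls in limma's fit, with 0 of 21 genes at an unadjusted p under 0.05 and Man1a at -0.36, Aqp4 at -0.14, Mog at 0.33, Cx3cr1 at 0.24 and Flt1 at -0.02. All 3 measured blood markers had ECS values above the sham values, against 18.7% of all genes. Hbb-bt had 0.80 ± 0.25, from 2 probesets that are both listed for another gene too.

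Genes with the most similar pattern were found by the Euclidean distance between log2 values, each centred on the gene's own mean, over the 4 arrays; with 4 arrays this is a description. Nearest to Gmnc were Stc1, which encodes a secreted glycoprotein (distance 0.50, difference -1.53), the kinesin gene Kif26b (0.57, -1.36), Dsp (0.66, -1.37), the lysophosphatidic acid receptor gene Lpar4 (0.72, -1.13) and Igfbp5 (0.73, -1.17). The sham arrays of these 5 differed by at most 0.22, against 0.47 for Gmnc. Nearest to Mcm6 were Sipa1l2 (distance 0.04, difference -0.99), Carmil1 (0.06, -0.93), the sodium channel gene Scn9a (0.08, -0.90), Cdhr1 (0.08, -0.95) and Tceal1 (0.08, -0.93). No gene of the replication lists was among these 5, which follows from their sizes, as the lowest difference in those lists was -0.74, for Tyms.

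**Figure D5:**
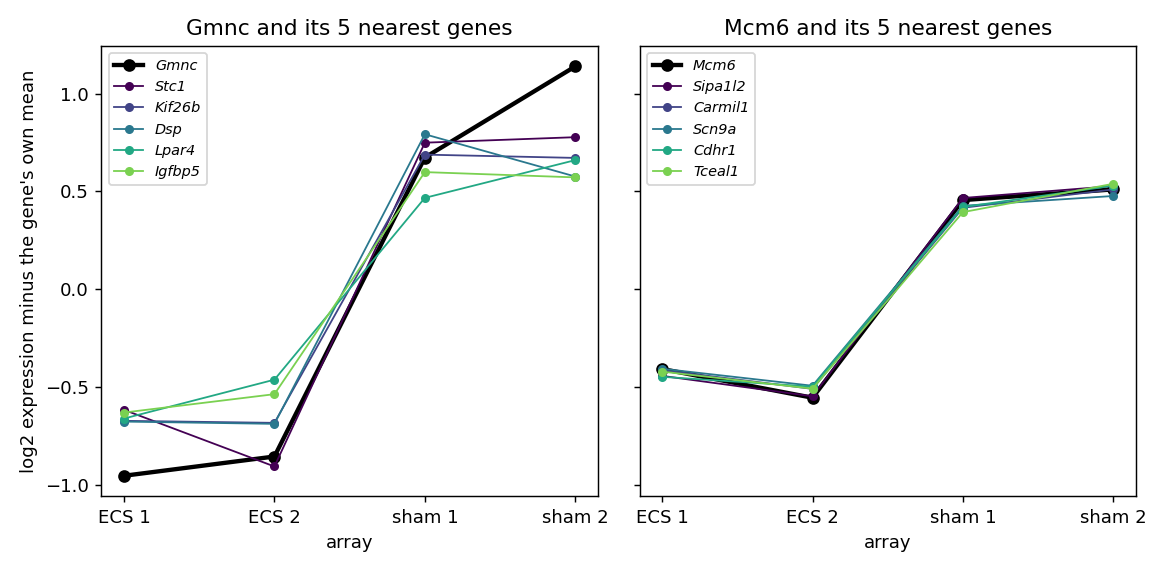
Log2 expression minus the gene's own mean (vertical axis) on the 4 arrays (horizontal axis) for Gmnc with its 5 nearest genes (left) and Mcm6 with its 5 nearest genes (right). The Mcm6 lines nearly coincide, at distances of 0.04 to 0.08, while Gmnc lies 0.50 or more from each of its neighbours.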

How the data were processed

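Per the submitters' processing notes, RMA and the oligo package made the deposited log2 expression values; neither their versions nor the build is given in the sources used here. The deposited gene-level table has 26106 rows; the 3621 rows with no probeset were left out. Each gene-level value equalled the mean over the transcript's probesets in the deposited probeset table within 5.00e-09, so array numbers come from that table. The deposited probeset_number column, another kind of value, counts the probesets listed for a transcript. Columns whose name holds 4H were read as ECS and the remaining ones, with 0H, as sham. RefSeq identifiers were matched to GRCm38.p6 for symbols (24928 of 25635). The row with the highest mean stood for a gene.

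ECS and sham were compared with limma 3.58.1 in R 4.3.3 (two-sided eBayes after lmFit, without block or filter) and Benjamini-Hochberg adjustment for 18010 genes; eBayes added 3.23 prior to 2 residual degrees of freedom. When ECS against sham was simulated for 18010 genes, 1.94% of genes changed 1.5-fold, 61.5% changed 2-fold and 90.9% changed 3-fold were recovered. Of the simulated calls 6.48% were false. The simulated noise was independent between arrays and held no shift of a whole array, unlike these data, in which sham 2 stood highest. The number of arrays limits the precision. Members and lists were chosen with earlier results of these data known. Named were all members, in each list the called genes and up to 2 largest differences each way, and 5 nearest genes for Gmnc and Mcm6; for the marker lists examples are given. Mcidas, Foxj1, E2f1, Mcm8 and Mcm9 and the genes called under other settings were named for their role or after their values were seen.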

Additional observations from a re-analysis of the deposited data

How the results depend on the processing

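Where 2 members were called lower, the fits without 1 array called 0 to 1, the replicate block 1 (Gmnc), and the median over probesets, chosen after seeing the data like the crossed block, 0. The other alternatives (median centring, quantile normalization, the mean of transcript rows, the fit without the dimmest 25% of genes, trend and robust eBayes, the value table, unshared probesets, the crossed block and an adjusted p under 0.10) gave 2, and 0 members were called higher in any. Mcm6 had -0.96 with the replicate block (adjusted p = 0.108) and -1.16 with the median over probesets (adjusted p = 0.113), and Gmnc -1.55 with that median (adjusted p = 0.172). Without 1 array Mcm6 ran from -1.04 to -0.89 and Gmnc from -2.04 to -1.58. Of the members not called, the sign turned without sham 2 for Mcm3 (0.0023), Cdt1 (-0.0058) and Cdc6 (-0.14) and with the median over probesets for Mcm4 (0.012), Cdt1 (-0.016) and Cdc6 (-0.17); over leave-one-out fits Mcm3 ran from -0.17, Cdt1 to 0.23 and Cdc6 to 0.20. Moves over 1.5 times with no call included Mcm2 (0.44, against 0.16), Mcm3 (-0.13), Mcm7 (-0.31) and Gmnn (-0.30) with the median over probesets and of Mcm4 (-0.05), Mcm7 (-0.07) and Gmnn (-0.08) without sham 2; median centring and quantile normalization also brought Mcm4 and Mcm7 to between -0.06 and -0.05. Of 90 replication genes, against 0, 7 were called with trend and robust eBayes and 3 without the dimmest genes; of 25 cilia genes 0 were called in any. Of 149 member probesets 49 were lower on both ECS arrays (32.9%, against 25.6% of all probesets), 16 of them in Mcm6 and 5 in Gmnc. The count was 40 after median centring (19.1% of all probesets) and 39 without the dimmest 25% of probesets (28.1% of all those left). Both stayed within 1.5 times of 49. Over all genes, against 90 higher and 35 lower calls, there were 365 and 352 with trend and robust eBayes, 242 and 216 without the dimmest genes, 26 and 6 with the replicate block, 80 and 18 after median centring, 0 and 0 with the median over probesets, and 0 to 5 and 0 to 2 without 1 array. Deviations of same-numbered arrays correlated at -0.203; the crossed replicate block gave 106 and 48 calls. Fewer arrays or genes aside, the cause was not tested. Signal over background was not measured. Cdc6 and Gmnn were among the dimmest 25% of genes, and Gmnc read below 5.90, the bound of the dimmest 25% of probesets, on both ECS arrays.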
